A study of Homo sapiens with 8 samples.

Results

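HCT116 cells of the line called circPRE8 were compared with HCT116 cells of the parental line, both with a guide against NORAD, across 11585 of the 19411 genes in the deposited table. The comparison took in all genes with at least 0.5 RPKM (reads per kilobase of gene, scaled to the size of the library) in at least 2 of the 8 libraries of the series, and 4 of those libraries, 2 of each line, entered the contrast. HCT116 is a human colorectal carcinoma line, and all lines here were equipped for CRISPR interference (CRISPRi), the silencing of a gene by a guide RNA that brings a Cas9 unable to cut to its promoter. There were 4 groups of 2 libraries. Parental sgControl was the parental CRISPRi line given a control guide, parental sgNORAD was that line given a guide to NORAD, and circPRE2 sgNORAD and circPRE8 sgNORAD were CRISPRi lines of those names given the guide to NORAD. No library of circPRE2 or circPRE8 with a control guide was analysed here, so what the line changes with and without the guide cannot be told apart. The labels do not say what circPRE2 and circPRE8 are, nor whether a line is 1 clone, and the names are used only as names.

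NORAD is a long noncoding RNA with many PUMILIO binding motifs. PUMILIO proteins bind a short motif in the 3′ untranslated region (3′ UTR) of messenger RNAs and recruit the CCR4-NOT deadenylase, which lowers the level of those messages. The series title ties NORAD to the phase separation of PUMILIO proteins and to genome maintenance, and the comparison asks which messages differed between the 2 lines when both had the NORAD guide. NORAD itself was not analysed here, and how far the guide lowered it is not known for any library.

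The scaling size of the libraries, recovered from the smallest steps of the RPKM values, was 28.39 and 45.69 megareads (a megaread is 1 M reads) in parental sgNORAD, 44.65 and 49.27 megareads in circPRE8 sgNORAD and 42.57 to 50.28 megareads in the other groups. A single read on a 1 kb gene was then worth 0.0199 to 0.0352 RPKM. The root mean square log2 difference between replicates was 0.149 in parental sgNORAD and 0.125 in circPRE8 sgNORAD. The replicate with the fewest reads, parental sgNORAD replicate 1, also held the lowest share of RPKM in mitochondrially encoded genes, 4.01% against 8.34% in its partner and 6.45% to 8.69% in the other 6 libraries. The p-values rest on the spread between replicates, pooled over the 4 groups and moderated over genes. Nothing in the labels says that replicates came from separate cultures, so that spread may be technical.

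A majority of the genes tested differed between the lines, most of them by little. In circPRE8 sgNORAD against parental sgNORAD, 2738 genes rose (23.6% of those tested) and 3315 fell (28.6%), together 52.2% (limma, Benjamini-Hochberg adjusted p under 0.05). The median log2 change over all genes was -0.02. Which direction held the majority turned with the scaling, with 3140 risen and 3031 fallen under median-of-ratios (RLE) factors and 3258 and 2938 under upper quartile factors. Rises of more than 2-fold were seen for 97 genes (0.837%) and falls of more than 2-fold for 118 (1.02%). Without the shallow parental sgNORAD replicate 1 the counts were 2619 and 2790.

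**Figure D1:**
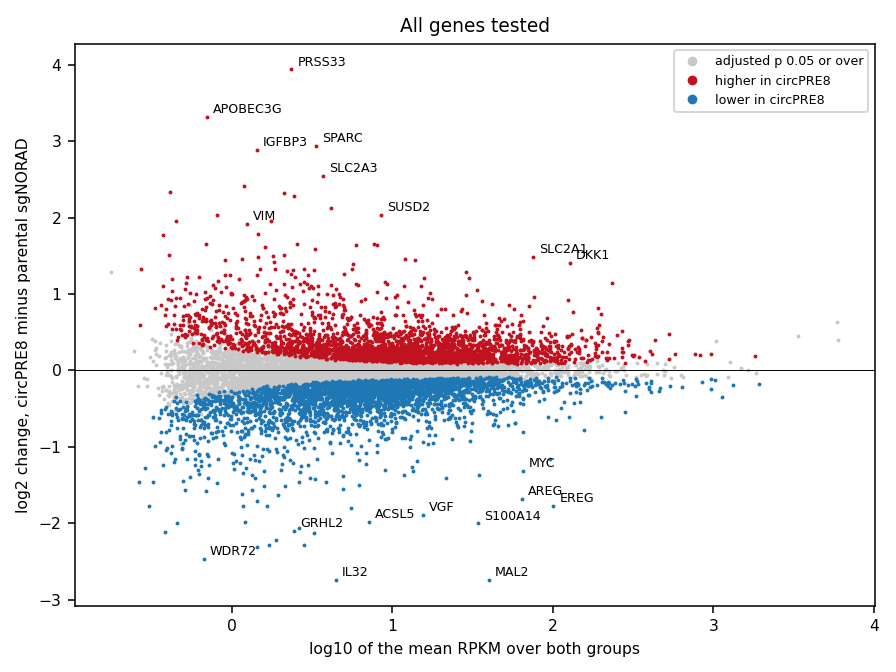
The log2 change in circPRE8 sgNORAD against parental sgNORAD (vertical axis, difference of group means of log2(RPKM + 0.1), n = 2 libraries per group) is plotted against the log10 of the mean RPKM of both groups for 11585 genes, with genes that rose in red, genes that fell in blue and the rest in grey. PRSS33 and APOBEC3G lie highest, IL32 and MAL2 lie lowest, and SLC2A1, DKK1, MYC, AREG and EREG are abundant genes with changes of more than 2-fold.

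The 15 largest rises ran from 3.15-fold to 15.4-fold. PRSS33, a serine protease gene (chromosome 16, 2783953 to 2787948), stood at 0.183 and 0.218 RPKM in parental sgNORAD and at 4.12 and 4.92 RPKM in circPRE8 sgNORAD. Its circPRE8 level was far above all 6 other libraries, which lay between 0.183 and 0.338 RPKM. On the log2 scale the rise was 3.94 ± 0.19 (SE; 15.4-fold, limma, Benjamini-Hochberg adjusted p = 3.8e-08).

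APOBEC3G, which encodes a cytidine deaminase known for editing retroviral DNA (chromosome 22, 39077005 to 39087743), was at 0.0328 and 0.057 RPKM in parental sgNORAD and at 1.1 and 1.64 RPKM in circPRE8 sgNORAD. The gene was close to silent in every library without circPRE8, where it did not exceed 0.057 RPKM. Its log2 rise was 3.32 ± 0.25 (SE; adjusted p = 9.55e-07), and the size hung on the constant added before taking logs, being 4.66 with 0.01 and 1.17 with 1.

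SPARC, a secreted matrix glycoprotein gene (chromosome 5, 151661096 to 151687165), was at 0.637 and 0.735 RPKM in parental sgNORAD and 4.92 and 7.1 RPKM in circPRE8 sgNORAD, a 7.66-fold rise (log2 2.94 ± 0.15 SE, adjusted p = 4.95e-08). circPRE2 sgNORAD lay between them at 1.38 and 1.62 RPKM, without overlap with either group. IGFBP3, which encodes a binding protein of insulin-like growth factors (chromosome 7, 45912245 to 45921874), rose from 0.308 and 0.225 RPKM to 2.39 and 2.83 RPKM (7.41-fold, adjusted p = 5.66e-08). The NORAD-guide libraries of the parental line were the lowest of all for IGFBP3, since parental sgControl held 0.72 and 0.663 RPKM and circPRE2 sgNORAD 0.478 and 0.413 RPKM. SUSD2, a gene for a sushi-domain membrane protein, rose from 3.43 and 3.13 RPKM to 13.7 and 13.9 RPKM (4.12-fold, adjusted p = 1.63e-09).

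For 4 of the 15 largest rises, circPRE8 did not pass against circPRE2. SLC2A3, a glucose transporter gene (GLUT3), stood at 1.04 and 0.977 RPKM in parental sgNORAD, 5.8 and 5.93 RPKM in circPRE2 sgNORAD and 6.47 and 6.33 RPKM in circPRE8 sgNORAD. The circPRE8 libraries were above the circPRE2 libraries, but the difference of 0.12 on the log2 scale did not pass (adjusted p = 0.171), though it did once values were centred among genes of like length (log2 0.20, adjusted p = 0.0232). SEMA3A, a secreted guidance cue, was at 1.43 and 1.53 RPKM in parental sgNORAD, 6.48 and 5.85 RPKM in circPRE2 sgNORAD and 6.55 and 7.11 RPKM in circPRE8 sgNORAD, a 4.38-fold rise over parental sgNORAD (adjusted p = 3.13e-09). The difference between the 2 circPRE lines was 0.14 ± 0.07 (log2, SE) and did not pass either (adjusted p = 0.123), but passed after the same centring (log2 0.23, adjusted p = 0.0202). SAMD5 rose 3.88-fold over parental sgNORAD and differed from circPRE2 by 0.19 on the log2 scale (adjusted p = 0.0871, and 0.0213 after centring). KRTAP3-1, a keratin-associated protein gene, rose 5.33-fold over parental sgNORAD, and its circPRE8 libraries at 1.82 and 2.33 RPKM overlapped with circPRE2 at 2.22 and 1.4 RPKM.

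The remaining genes among the 15 largest rises were F10 (coagulation factor X, 5.02-fold), DNER (a Notch ligand relative, 4.87-fold), GPER1 (a G protein-coupled oestrogen receptor, 4.09-fold), VIM (vimentin, the intermediate filament of mesenchymal cells, 3.78-fold), SERPINA1 (alpha-1 antitrypsin, 3.46-fold) and SNTB1 (a syntrophin of the dystrophin complex, 3.15-fold). DNER stood at 2.13 and 2.41 RPKM in parental sgControl, 0.869 and 0.679 RPKM in parental sgNORAD, 1.76 and 1.78 RPKM in circPRE2 sgNORAD and 4.16 and 4.09 RPKM in circPRE8 sgNORAD. For all 15 genes both circPRE8 libraries also lay above both parental sgControl libraries. These genes were chosen for a high circPRE8 level. In circPRE8 sgNORAD against parental sgControl all 15 were higher at adjusted p under 0.05, beside 20% of all genes.

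**Figure D2:**
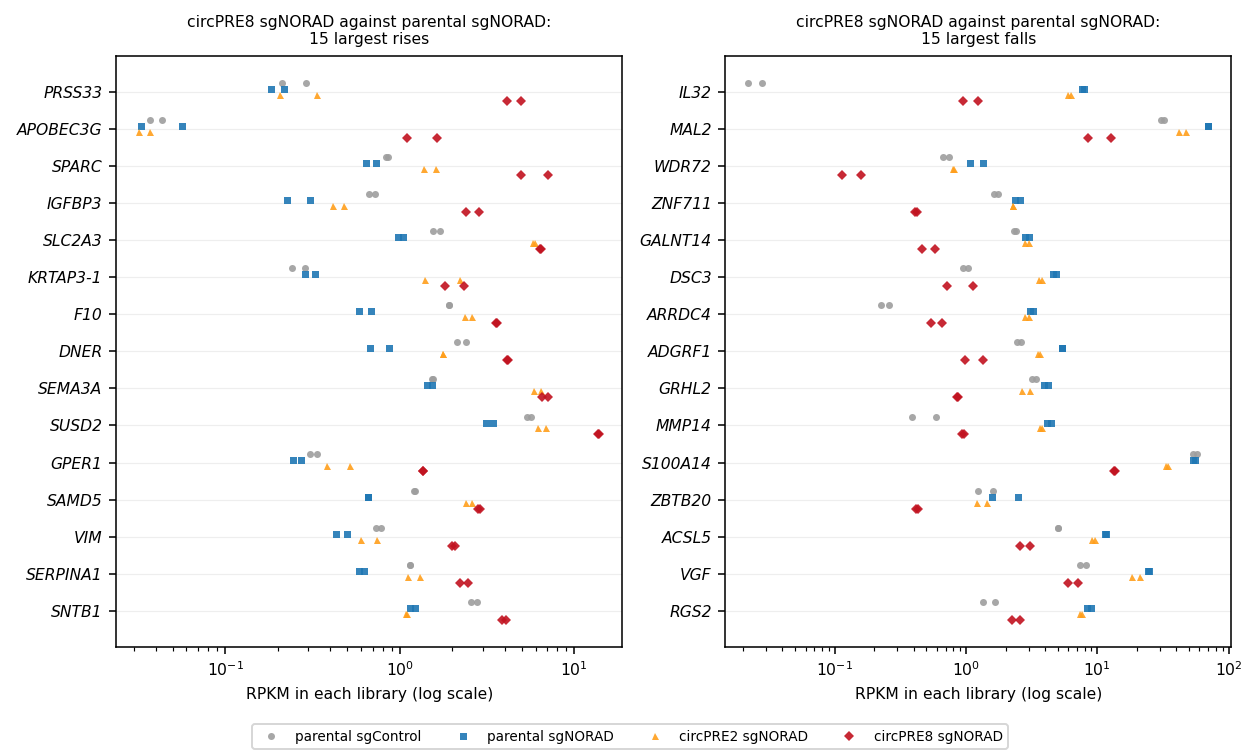
Each point is the RPKM of 1 library (horizontal log axis) for the 15 genes with the largest rises (left) and the 15 with the largest falls (right) in circPRE8 sgNORAD against parental sgNORAD, with 2 libraries for each of the 4 groups. The red circPRE8 points stand apart from the blue parental sgNORAD points for all 30 genes, as the choice of genes required, and from the orange circPRE2 points by much less for SLC2A3, SEMA3A and SAMD5 than for PRSS33 or APOBEC3G, while the red and orange points overlap for KRTAP3-1.

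The 15 largest falls left 0.149 to 0.288 of the parental sgNORAD level. IL32 (chromosome 16, 3065297 to 3082192), a cytokine gene, was at 7.94 and 7.7 RPKM in parental sgNORAD and at 1.23 and 0.949 RPKM in circPRE8 sgNORAD (fold 0.149, log2 -2.75 ± 0.11 SE, adjusted p = 8.71e-09). It was almost off in parental sgControl, at 0.022 and 0.0278 RPKM, and high in circPRE2 sgNORAD, at 6 and 6.26 RPKM. Thus circPRE8 sgNORAD lay apart from all 3 other groups, below the NORAD-guide libraries and above the control-guide libraries.

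MAL2, which encodes a membrane protein of apical transport in epithelial cells (chromosome 8, 119165034 to 119245673), fell from 70.3 and 69.2 RPKM to 12.7 and 8.49 RPKM (0.15 of the parental level, adjusted p = 3.12e-08). Its circPRE8 level was also below parental sgControl, at 30.5 and 32 RPKM, and below circPRE2 sgNORAD, at 42.2 and 47 RPKM. GRHL2, a transcription factor of epithelial identity (chromosome 8, 101492432 to 101669726), fell from 4.2 and 3.92 RPKM to 0.861 and 0.877 RPKM (0.233, adjusted p = 8.71e-09). All 6 other libraries held at least 2.69 RPKM of GRHL2. S100A14, a calcium-binding protein gene of epithelia, fell from 55.9 and 53.9 RPKM to 13.7 and 13.5 RPKM (0.25, adjusted p = 1.79e-10). Parental sgControl was at 53.3 and 57.5 RPKM for S100A14, level with parental sgNORAD.

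A second set of large falls was of genes that stood low in parental sgControl. DSC3, a desmosomal cadherin gene, was at 1.04 and 0.952 RPKM in parental sgControl, 4.89 and 4.61 RPKM in parental sgNORAD, 3.8 and 3.63 RPKM in circPRE2 sgNORAD and 1.13 and 0.712 RPKM in circPRE8 sgNORAD (0.206 of parental sgNORAD, adjusted p = 3.37e-07). The circPRE8 libraries overlapped with the control-guide libraries. MMP14, a membrane-bound matrix metalloproteinase gene, stood at 0.59 and 0.385 RPKM in parental sgControl, 4.16 and 4.44 RPKM in parental sgNORAD and 0.97 and 0.929 RPKM in circPRE8 sgNORAD (0.239, adjusted p = 3.37e-07). ARRDC4, an arrestin relative, and RGS2, which shortens signals of G protein-coupled receptors, likewise stayed above parental sgControl while they fell to 0.215 and 0.288 of parental sgNORAD. Both contrasts of such a gene use the same parental sgNORAD libraries, so the values are given side by side and no joint test was made.

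The other genes of the 15 largest falls were WDR72, ZNF711 (a zinc finger gene), GALNT14 (a transferase that starts O-linked glycans), ADGRF1 (an adhesion G protein-coupled receptor), ZBTB20 (a transcriptional repressor), ACSL5 (an acyl-CoA synthetase) and VGF (a secreted neuropeptide precursor), at 0.18 to 0.271 of the parental sgNORAD level. ZNF711 held 1.63 to 2.59 RPKM in the 6 libraries without circPRE8 and 0.425 and 0.41 RPKM in circPRE8 sgNORAD. GALNT14 held 2.31 to 3.04 RPKM in those 6 libraries and 0.459 and 0.584 RPKM in circPRE8 sgNORAD. For 10 of the 15 falls both circPRE8 libraries lay below both parental sgControl libraries. These genes were chosen for a low circPRE8 level. In circPRE8 sgNORAD against parental sgControl 10 were lower and 4 higher at adjusted p under 0.05, beside 20.5% and 20% of all genes.

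Whether a change belonged to circPRE8 rather than to both circPRE lines was tested by circPRE8 sgNORAD against circPRE2 sgNORAD, in which the parental libraries play no part. There 2081 genes were higher in circPRE8 (18% of those tested) and 2975 lower (25.7%), together 43.6%. The majority turned here too, with 2680 higher and 2498 lower under RLE factors and 2696 and 2478 under upper quartile factors. Without circPRE2 sgNORAD replicate 1 the counts were 1289 and 1884, and without circPRE8 sgNORAD replicate 1 they were 1387 and 2222. Of the genes above, 11 of 15 rises and 15 of 15 falls differed from circPRE2 in the direction in which they differed from parental sgNORAD. These genes were chosen for their circPRE8 level, which enters both contrasts. PRSS33, APOBEC3G, IGFBP3, IL32, ZNF711 and GALNT14 were the 6 genes with the largest changes against both other lines with the NORAD guide, ranked by the smaller of the 2 changes.

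PUMILIO motifs occur on both sides of the 30 largest changes, and the sites of the 2 genes among them with several copies are shown because the study is about PUMILIO binding. SEMA3A rose and has 4 copies of the motif (TGTA, any base, ATA, on the transcript strand) in a 3′ UTR of 5594 bases, and DSC3 fell and has 2 copies in a 3′ UTR of 4167 bases (GENCODE release 29, hg38). The motif is in capitals, with 11 flanking bases on each side in lower case, read 5′ to 3′ on the minus strand, where both genes lie.
SEMA3A site 1, chr7:83959030-83959037: tcaaagaaaatTGTAGATAtaacttgcaga
SEMA3A site 2, chr7:83958665-83958672: caaaaaaaagaTGTAAATAatttgggagaa
SEMA3A site 3, chr7:83957160-83957167: aacctgtgcctTGTATATAccttttattgt
SEMA3A site 4, chr7:83955931-83955938: aacactatactTGTATATAcaatgtttatt
DSC3 site 1, chr18:30993382-30993389: ttgtttaaaatTGTAAATAaattaaacttt
DSC3 site 2, chr18:30991277-30991284: agaattttttaTGTAAATAtacagaatgtt
A match to these letters is a description of the sequence and not a measured binding site.

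Over all genes with a 3′ UTR, those with the motif were slightly lower in circPRE8. The median log2 change was -0.01 for 8421 genes with no copy, -0.05 for 1960 with 1 copy and -0.08 for 1005 with at least 2, and the share that fell was 26.4%, 33.2% and 37.9%. Leaving out single libraries gave medians of -0.11 to -0.05 for the genes with at least 2 copies. Genes with more copies had longer 3′ UTRs, with a median of 706, 1949 and 3258 bases in the 3 classes. Once log2 values were centred among genes of like exon length, the medians were 0.02, 0.01 and 0.01 and the shares that fell were 23.1%, 25.7% and 26.2%.

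Gene length followed the change over the whole table. In the eighth of genes with the shortest merged exons (207 to 2363 bases) the median log2 change was 0.06, with 34.5% risen and 19.7% fallen. In the longest eighth (9695 to 44677 bases) the median was -0.16, with 9.94% risen and 47.2% fallen. The longest eighth lay 0.22 below the shortest in circPRE8 against parental sgNORAD and 0.22 below it in circPRE8 against circPRE2, but 0.02 below it in circPRE2 against parental sgNORAD. Between replicates of a group the same difference ran from 0.02 to 0.10. After centring by length in 20 bins, 3299 genes rose and 2761 fell, so that 54.4% of the calls were rises in place of 45.2%.

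**Figure D3:**
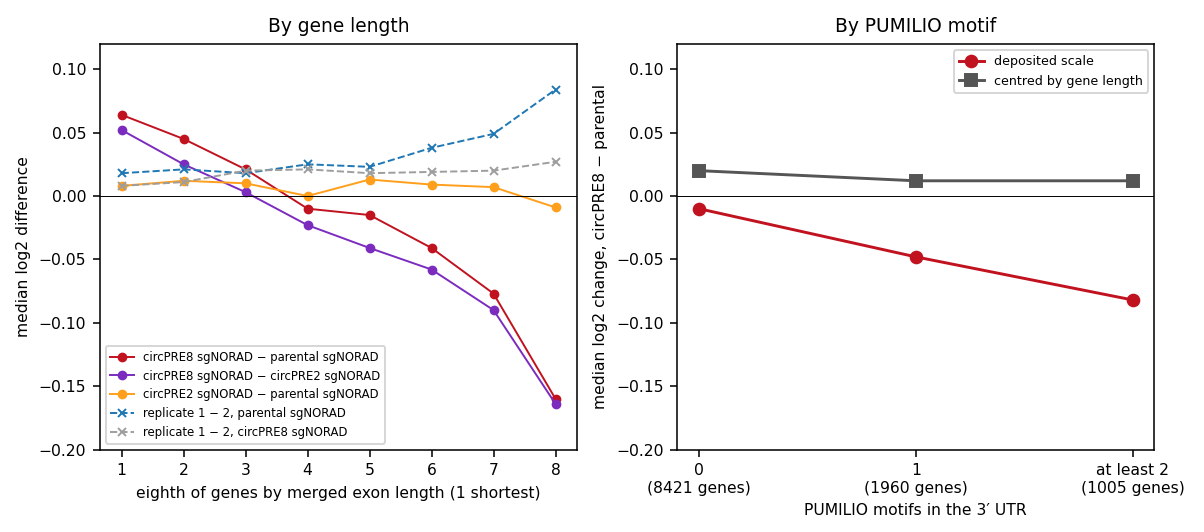
Left, the median log2 difference (vertical axis) is plotted by eighth of genes from shortest to longest merged exon length (horizontal axis), for 3 contrasts between groups (solid lines) and for the difference between replicates of 2 groups (dashed lines); both circPRE8 contrasts slope down to -0.16 in the longest eighth. Right, the median log2 change in circPRE8 sgNORAD against parental sgNORAD is plotted by the number of PUMILIO motifs in the 3′ UTR; it falls to -0.08 on the deposited scale (red) and stays at 0.01 to 0.02 after centring by gene length (grey).

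PUM2, a PUMILIO gene, was at 29.5 and 26.6 RPKM in parental sgNORAD and 29.5 and 28.4 RPKM in circPRE8 sgNORAD (log2 0.05 ± 0.05 SE, limma adjusted p = 0.459). The groups overlapped and the gene did not pass, although it did after centring by length (log2 0.14, adjusted p = 0.0124). Of 18 tested PUMILIO targets named in the literature, 9 rose and 4 fell, with a median log2 change of 0.12. These were 50% and 22.2%, against 23.6% and 28.6% of all genes. In parental sgNORAD against parental sgControl 1 of the 18 rose and 11 fell, beside 20.9% and 16.4% of all genes. Set against parental sgControl, circPRE8 sgNORAD was higher for 3 and lower for 7 (median -0.065), beside 20% and 20.5%. Against circPRE2 sgNORAD it was higher for 8 and lower for 4, beside 18% and 25.7%. These comparisons share libraries and are set side by side only. BMP4, a growth factor gene of the bone morphogenetic family, rose from 42.6 and 40.8 RPKM to 71.5 and 74 RPKM (1.74-fold, adjusted p = 4.43e-08). Parental sgControl held 68.7 and 69.5 RPKM of BMP4. DUSP6, a phosphatase that acts on ERK, rose 1.6-fold to 55.2 and 59.3 RPKM, overlapping with circPRE2 sgNORAD at 61.6 and 56.2 RPKM. PRKDC, the DNA end-joining kinase gene, fell from 57.4 and 42.6 RPKM to 19.6 and 18.8 RPKM (0.389, adjusted p = 2.35e-06), and ATXN1 fell to 0.651. Of 28 PUMILIO and CCR4-NOT factors, 5 rose and 8 fell (17.9% and 28.6%, median -0.06), near the shares over all genes. The counts became 10 and 6 after centring by length, when over all genes 3299 rose and 2761 fell. The scaffold CNOT1 fell to 0.679 and the deadenylase CNOT6L to 0.785, while BTG1, which binds the deadenylase, rose 1.46-fold.

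Most tested genes of the epithelial-mesenchymal list rose. Of 16 tested genes of this list, which also takes in the TGF-beta response, 12 rose and 3 fell, 75% and 18.8%, and their median log2 change was 0.80. For this list and those below, the shares of all genes in the same contrast were 23.6% risen and 28.6% fallen. Without circPRE8 sgNORAD replicate 1, 1 member fell. VIM rose from 0.497 and 0.431 RPKM to 2.07 and 1.99 RPKM (adjusted p = 3.37e-07), above the 0.601 to 0.781 RPKM of parental sgControl and circPRE2 sgNORAD. TGM2, a crosslinking transglutaminase gene, rose 2.4-fold from 2.97 and 2.84 RPKM to 7.08 and 7.13 RPKM, and CCN2, a matrix signalling gene induced by TGF-beta and YAP, rose 2.12-fold. ZEB1, which encodes a repressor of epithelial genes and was chosen after its values were seen, rose from 0.843 and 0.698 RPKM to 1.63 and 1.6 RPKM (1.98-fold, adjusted p = 4.53e-05). TWIST1, also chosen after its values were seen, rose 1.91-fold to 2.4 and 2.47 RPKM but stayed below parental sgControl at 3.38 and 3.56 RPKM. The 3 members that fell are not named here. In circPRE2 against parental sgNORAD, where 10.9% of all genes rose and 7.91% fell, 8 of the 16 rose and 0 fell (median 0.44). Against circPRE2, where 18% of all genes were higher in circPRE8 and 25.7% lower, 9 were higher and 3 lower (median 0.28).

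Cell junction genes moved the other way. Of 23 tested, 2 rose and 14 fell, 8.7% and 60.9%, with a median of -0.24. CDH1, the E-cadherin gene (chromosome 16, 68737225 to 68835548), fell from 11.5 and 10.5 RPKM to 5.78 and 6.18 RPKM (0.548, adjusted p = 3.9e-07). Every library without circPRE8 held at least 9.79 RPKM of CDH1. The desmosomal genes DSP and DSC2 fell to 0.578 and 0.616, and EPCAM, an epithelial adhesion gene, fell from 113 and 112 RPKM to 73.2 and 73.8 RPKM (0.654, adjusted p = 1.53e-07). The members that rose, both chosen after their values were seen, were CTNNB1 (beta-catenin, 1.18-fold) and PKP4 (a plakophilin, 1.1-fold). Without parental sgNORAD replicate 2, or without either circPRE8 library, 1 member rose.

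Keratin genes, the intermediate filament genes of epithelia, did not follow the junction genes. Of 10 tested, 9 rose and 1 fell, 90% and 10%, with a median of 0.58. KRT19 rose from 446 and 431 RPKM to 605 and 619 RPKM (1.4-fold, adjusted p = 4.94e-06), and KRT8 rose 1.32-fold to 336 and 341 RPKM. KRT23 rose 2.68-fold, KRT20 2.34-fold, KRT81 2.3-fold and KRT80 1.82-fold, all at levels under 4 RPKM in circPRE8. KRT7, the member that fell, was chosen after its values were seen and stood at 0.621 of parental sgNORAD. Keratin genes have near-identical copies and pseudogenes that may share reads, so their values are uncertain to that extent.

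Matrix and integrin genes rose more often than they fell, with 13 risen and 6 fallen of 25 laminins, integrins and matrix enzymes (52% and 24%, median 0.14). LOXL2, a lysyl oxidase relative that crosslinks matrix, rose 2.03-fold from 5.74 and 4.86 RPKM to 11 and 10.7 RPKM. The laminin chain genes LAMA4 and LAMA3 fell to 0.25 and 0.545. LAMA4 went from 0.824 and 0.763 RPKM to 0.141 and 0.107 RPKM, near the 0.0842 and 0.0879 RPKM of parental sgControl.

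**Figure D4:**
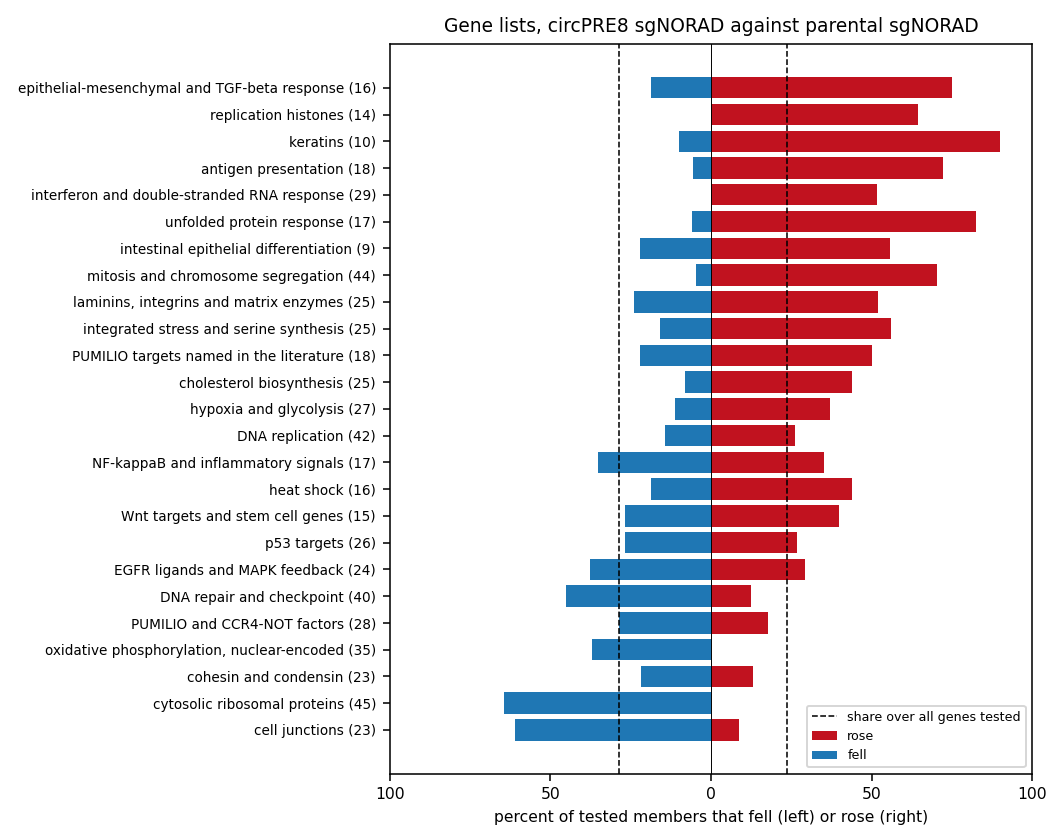
Bars give the percent of the tested members of each gene list that rose (right, red) or fell (left, blue) in circPRE8 sgNORAD against parental sgNORAD, with the number of tested members in brackets, and dashed lines mark the shares over all genes tested, 23.6% and 28.6%. Keratins, unfolded protein response, epithelial-mesenchymal genes, antigen presentation and mitosis reach past the line on the right, and ribosomal proteins and cell junctions reach farthest on the left.

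The markers of the line itself bear on these lists. Of 10 epithelial markers, the kind this carcinoma line should hold, 6 were tested, of which KRT8, KRT18 and KRT19 rose, EPCAM and CDH1 fell, and CDX2, an intestinal transcription factor gene at 4.41 to 4.64 RPKM in both groups, did not pass. CDX1 was listed at 0 in all 8 libraries, and VIL1, LGALS4 and CDH17 did not exceed 0.0733 RPKM. Of 7 fibroblast markers 3 were tested and 2 rose, SPARC and COL3A1. The summed level of all 7 markers was 8.83 and 13.3 RPKM in circPRE8 sgNORAD against 4.83 to 4.97 RPKM in parental sgNORAD. COL3A1 was at 0.681 and 1.33 RPKM in circPRE8 sgNORAD, and its call was lost without replicate 2 of that group (adjusted p = 0.149), when 1 marker rose and 1 fell, and without parental sgNORAD replicate 2 (adjusted p = 0.0534). The markers DCN, LUM, PDGFRB and COL1A2 were not tested and, like COL3A1, were highest of all 8 libraries in circPRE8 sgNORAD replicate 2, at 0.0712, 0.152, 0.0768 and 0.817 RPKM. In replicate 1 of that group they were at 0.0178, 0.0587, 0.0314 and 0.357 RPKM, and COL1A1 did not pass. Of 6 blood markers only CORO1A was tested, and it did not pass (adjusted p = 0.475). PTPRC and CD3E were at or near 0. None of the 4 endothelial markers was tested, with a summed level of at most 0.198 RPKM. Of 6 embryonic kidney and neural markers only PAX2 was tested, and it rose 1.77-fold to 2.84 and 2.69 RPKM, while WT1 was at 0 throughout. In circPRE8 sgNORAD, replicate 1 first, COL3A1 was at 0.681 and 1.33 RPKM, SPARC at 4.92 and 7.1 RPKM and VIM at 2.07 and 1.99 RPKM. The part of other cells in the changes of SPARC or VIM was not tested. In bulk RNA, fewer cells of a kind and less RNA per cell cannot be told apart.

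EREG and AREG, which encode ligands of the EGF receptor, fell from 157 and 155 RPKM to 49.3 and 42.1 RPKM (0.293, adjusted p = 2.02e-09) and from 98 and 97.4 RPKM to 31.6 and 29 RPKM (0.311, adjusted p = 5.8e-10). Parental sgControl was near parental sgNORAD for both, at 162 and 161 RPKM for EREG. Of 24 EGFR ligand and MAPK feedback genes, 7 rose and 9 fell (29.2% and 37.5%, median -0.04), with the phosphatase gene DUSP5 at 0.694.

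MYC, a transcription factor of cell growth, was at 58.2 and 59.5 RPKM in parental sgControl, 92.1 and 93 RPKM in parental sgNORAD, 72 and 71.5 RPKM in circPRE2 sgNORAD and 38.6 and 35.9 RPKM in circPRE8 sgNORAD. The 4 groups did not overlap, and circPRE8 was lowest (0.403 of parental sgNORAD, adjusted p = 1.21e-09). DKK1, a secreted Wnt antagonist, rose from 71.1 and 68.6 RPKM to 181 and 189 RPKM (2.64-fold, adjusted p = 5.8e-10), and SP5, a Wnt target transcription factor, rose 2.51-fold. PROM1, a stem cell surface marker, fell to 0.294 of parental sgNORAD, from 2.52 and 2.7 RPKM to 0.774 and 0.622 RPKM. Of 15 Wnt target and stem cell genes, 6 rose and 4 fell (40% and 26.7%), with a median of 0.00.

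Among 9 tested intestinal differentiation genes, 5 rose and 2 fell (55.6% and 22.2%, median 0.21). The epithelial ETS factors EHF and ELF3 went in opposite directions. EHF was at 20.6 and 21 RPKM in parental sgControl, 10.2 and 9.01 RPKM in parental sgNORAD, 2.25 and 2.06 RPKM in circPRE2 sgNORAD and 20.4 and 21.1 RPKM in circPRE8 sgNORAD (2.15-fold over parental sgNORAD, adjusted p = 1.22e-07). The circPRE8 and circPRE2 lines lay on opposite sides of parental sgNORAD for EHF, 3.21 apart on the log2 scale (adjusted p = 5.56e-11). ELF3 fell from 7.27 and 7.56 RPKM to 2.6 and 2.34 RPKM (0.341, adjusted p = 1.35e-08), level with the 2.55 and 2.67 RPKM of parental sgControl. CA2, a carbonic anhydrase gene, rose 1.32-fold.

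Mitosis genes rose together by a little. Of 44 tested, 31 rose and 2 fell, 70.5% and 4.55%, with a median log2 change of 0.19. KIF18A, a kinesin that limits microtubule growth at the spindle (chromosome 11, 28020620 to 28108308), rose from 12 and 11.5 RPKM to 17.9 and 16.9 RPKM (1.48-fold, adjusted p = 2.33e-06). NDC80, a kinetochore gene, and PLK1, a mitotic kinase gene, rose 1.32-fold and 1.31-fold. MKI67, a proliferation marker with a long transcript, fell from 56.6 and 45.5 RPKM to 35 and 33.4 RPKM (0.674, adjusted p = 0.000304). In parental sgNORAD against parental sgControl, where 20.9% of all genes rose and 16.4% fell, 0 of the same 44 genes rose and 40 fell. Against parental sgControl, where 20% of all genes were higher and 20.5% lower in circPRE8 sgNORAD, 3 were higher and 15 lower. Against circPRE2 sgNORAD, where 18% of all genes were higher and 25.7% lower, 35 of the 44 were higher and 2 lower. These comparisons share libraries with the main one, so their counts are set side by side only.

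The promoter of KIF18A is shown as an example of the cell cycle genes homology region, a short element of genes that are active late in the cell cycle. The sequence runs from 250 bases before to 50 bases after the start (RefSeq, GRCh38.p14, chr11:28108107-28108406, minus strand), with the motif TTTGAA in capitals.
KIF18A promoter: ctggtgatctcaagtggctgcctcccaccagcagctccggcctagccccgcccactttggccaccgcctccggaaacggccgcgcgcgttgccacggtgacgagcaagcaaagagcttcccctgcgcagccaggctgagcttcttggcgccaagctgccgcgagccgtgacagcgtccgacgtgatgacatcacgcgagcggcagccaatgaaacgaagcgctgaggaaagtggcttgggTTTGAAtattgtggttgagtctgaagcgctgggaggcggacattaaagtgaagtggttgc
Of the 38 mitosis genes with a promoter in the RefSeq table, 26 (68.4%) held TTTGAA on either strand, against 9.1% of 9198 tested genes with a promoter and 15.2% of all 35116 promoters. Among the mitosis genes that rose, 17 of 25 held it, a share like that of all 38. The part of the motif in the rise was not tested.

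DNA replication genes moved little as a group, with 26.2% risen and 14.3% fallen. Of 42 tested, 11 rose and 6 fell (median 0.03), and the rises went to 4 without circPRE8 sgNORAD replicate 1 and to 6 without parental sgNORAD replicate 2. TYMS, the thymidylate synthase gene, rose 1.22-fold and MCM6, a helicase subunit gene, fell to 0.859. Of 23 genes for cohesin or condensin, 3 rose and 5 fell (13% and 21.7%, median -0.07). The falls were 2 without parental sgNORAD replicate 1 or without circPRE8 sgNORAD replicate 2, and 9 without parental sgNORAD replicate 2. PDS5A, a cohesin regulator gene, fell to 0.788 and CDCA5, which protects cohesin in mitosis, rose 1.12-fold. After centring by length 7 of the 23 cohesin and condensin genes rose and 3 fell (median 0.03). The log2 change of PDS5A was then -0.12 in place of -0.34.

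DNA repair and checkpoint genes leaned down, with 5 risen and 18 fallen of 40 (12.5% and 45%, median -0.05). The falls were 11 without circPRE8 sgNORAD replicate 2. The rises were 1 without circPRE8 sgNORAD replicate 1, 2 without parental sgNORAD replicate 2 and 3 without circPRE8 sgNORAD replicate 2. ATM and ATR, the kinases that open the damage checkpoint, fell to 0.639 and 0.646. ATM was at 2.46 and 2.22 RPKM in parental sgNORAD and 1.43 and 1.48 RPKM in circPRE8 sgNORAD (adjusted p = 0.000143). XRCC4, an end-joining ligase partner, rose from 15.1 and 14.3 RPKM to 25.7 and 25.8 RPKM (1.75-fold, adjusted p = 6.57e-08). The repair genes that fell had a median exon length of 7915 bases and those that rose 3288 bases, and after centring by length 7 rose and 12 fell.

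p53 target genes showed no common direction. Of 26 tested, 7 rose and 7 fell (26.9% each, median -0.02). The falls were 4 without parental sgNORAD replicate 1, 4 without circPRE8 sgNORAD replicate 1 and 2 without circPRE8 sgNORAD replicate 2. In parental sgNORAD against parental sgControl, where 20.9% of all genes rose and 16.4% fell, 22 of them rose and 1 fell. PLK2, a stress-induced kinase gene, rose from 29.7 and 29.2 RPKM to 54.1 and 53.6 RPKM (1.82-fold, adjusted p = 8.71e-09), SESN2, a sestrin gene of the stress response, rose 1.43-fold and ZMAT3 fell to 0.639. CDKN1A, the gene of the cyclin kinase inhibitor p21, was chosen after its values were seen. It stood at 150.0 and 148 RPKM in parental sgNORAD and 150.0 and 144 RPKM in circPRE8 sgNORAD, and did not pass (adjusted p = 0.75). Its parental sgControl level was 84.4 and 91.8 RPKM.

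Interferon genes were higher in circPRE8 than in parental sgNORAD. Of 29 tested members of the list for interferon and for double-stranded RNA, 15 rose and 0 fell (51.7%, median 0.24), and 3 fell without parental sgNORAD replicate 2. IFI6, an interferon-induced mitochondrial protein gene, rose from 17.7 and 18 RPKM to 32.9 and 52.3 RPKM (2.31-fold, adjusted p = 4.65e-05). IFIT1, which encodes a sensor of foreign RNA ends, rose 2.2-fold, IRF7, a transcription factor of the response, 1.85-fold, and BST2, a tether of budding virus, 2.2-fold. The circPRE8 replicates differed, as BST2 was at 2.2 RPKM in replicate 1 and 3.8 RPKM in replicate 2, and its log2 rise was 0.76 without replicate 2 in place of 1.14. Against circPRE2, where 18% of all genes were higher in circPRE8 and 25.7% lower, 2 of the 29 were higher and 5 lower (median -0.04). In circPRE2 against parental sgNORAD, where 10.9% of all genes rose and 7.91% fell, 16 rose and 0 fell. In parental sgNORAD against parental sgControl 17 rose and 0 fell, beside 20.9% and 16.4% of all genes.

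The IFI6 promoter carries 3 copies of the interferon-stimulated response element (GAAA, 2 bases of any kind, GAAA), shown in capitals (RefSeq, GRCh38.p14, chr1:27672143-27672442, minus strand, 250 bases before to 50 after the start).
IFI6 promoter: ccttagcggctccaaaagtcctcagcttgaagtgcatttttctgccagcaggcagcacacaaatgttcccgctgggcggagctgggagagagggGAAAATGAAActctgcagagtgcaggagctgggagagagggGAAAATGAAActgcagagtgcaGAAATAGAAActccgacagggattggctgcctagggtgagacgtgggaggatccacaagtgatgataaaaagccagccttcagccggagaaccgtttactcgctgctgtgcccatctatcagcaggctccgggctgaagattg
Of the 22 interferon genes with a promoter in the RefSeq table, 15 (68.2%) held the element on either strand, against 2.61% of tested genes and 3.57% of all promoters. Of those that rose, 8 of 10 held it, and the part of the element in the rise was not tested.

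Antigen presentation genes also rose, 13 of 18 with 1 fall (72.2% and 5.56%, median 0.28), and no member fell without either circPRE8 library or without parental sgNORAD replicate 1. HLA-C rose from 126 and 119 RPKM to 176 and 178 RPKM (1.44-fold, adjusted p = 8.48e-07), and HLA-B and HLA-E rose 1.42-fold and 1.41-fold. PSMB9, a subunit of the immunoproteasome, rose 1.84-fold. In circPRE2 against parental sgNORAD 9 of the 18 rose and 0 fell, beside 10.9% and 7.91% of all genes. The circPRE8 line was higher than circPRE2 for 10 and lower for 2, beside 18% and 25.7% of all genes. HLA genes are near-identical to one another and may share reads. Of 17 NF-kappaB and inflammatory genes, 6 rose and 6 fell (35.3% each, median 0.01). ICAM1, an adhesion receptor for leukocytes, fell from 1.92 and 1.76 RPKM to 0.916 and 0.647 RPKM (0.449, adjusted p = 4.51e-05), CXCL16, a chemokine gene, fell to 0.591 and LIF, a cytokine of the interleukin 6 family, rose 1.65-fold.

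Against parental sgNORAD, stress and biosynthetic genes rose more often than they fell. Of 17 genes for the unfolded protein response, 14 rose and 1 fell (82.4% and 5.88%, median 0.21), with the chaperone gene DNAJB9 up 1.4-fold and the transcription factor XBP1 up 1.28-fold from 21.5 and 21.3 RPKM to 28.1 and 26.6 RPKM. The fall was lost without 3 of the 4 libraries compared, all but circPRE8 sgNORAD replicate 1. Of 25 integrated stress and serine synthesis genes, 14 rose and 4 fell (median 0.14), and 8 rose without circPRE8 sgNORAD replicate 2. With all libraries, 56% of these 25 rose and 16% fell. CHAC1, a glutathione-degrading enzyme gene induced by ATF4, rose 2.01-fold, and PHGDH, the first enzyme of serine synthesis, rose from 9.35 and 8.25 RPKM to 14.5 and 14.8 RPKM (1.66-fold, adjusted p = 1.12e-06). SLC38A2, a neutral amino acid transporter gene, fell from 152 and 152 RPKM to 102 and 97.1 RPKM (0.656, adjusted p = 5.56e-07). In parental sgNORAD against parental sgControl, 0 of the 17 unfolded protein genes rose and 13 fell. Of the 25 integrated stress genes 3 rose and 12 fell there, beside 20.9% and 16.4% of all genes. Set against parental sgControl, circPRE8 sgNORAD was higher for 2 of the 17 and lower for 3 (median -0.003). It was higher for 4 of the 25 and lower for 6, beside 20% and 20.5% of all genes. These comparisons share libraries and are set side by side only.

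Of 16 heat shock genes, 7 rose and 3 fell (43.8% and 18.8%, median 0.00), among them HSPB1 at 1.19-fold and HSPA4L at 0.556. In cholesterol biosynthesis 11 of 25 rose and 2 fell (44% and 8%, median 0.12). ACAT2, the first enzyme of the pathway, rose 1.43-fold, whereas SQLE, which makes squalene epoxide, fell to 0.768. Of the 25 cholesterol genes, 2 rose and 17 fell in parental sgNORAD against parental sgControl, beside 20.9% and 16.4% of all genes. Set against parental sgControl, circPRE8 sgNORAD was higher for 2 of them and lower for 16, beside 20% and 20.5% of all genes.

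Of 27 genes for glycolysis or the response to hypoxia, 10 rose and 3 fell (37% and 11.1%, median 0.09). SLC2A1, the main glucose transporter gene (GLUT1), rose from 40.9 and 38.3 RPKM to 111 and 111 RPKM (2.8-fold, adjusted p = 5.8e-10), and circPRE2 sgNORAD lay between them at 65.2 and 65.9 RPKM. HK2, a hexokinase gene, fell from 13 and 12.7 RPKM to 5.43 and 4.85 RPKM (0.404, adjusted p = 1.52e-08), and PDK1, which holds back pyruvate oxidation, fell to 0.574.

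Ribosomal protein genes were slightly lower. Of 45 tested, 0 rose and 29 fell (64.4%, median -0.15), and RPL3 fell from 452 and 445 RPKM to 372 and 368 RPKM (0.824, adjusted p = 8.66e-05). Parental sgControl stood at 369 and 384 RPKM for RPL3, level with circPRE8. With RLE factors 0 rose and 27 fell. These genes have many pseudogenes that may share reads. Of 35 nuclear-encoded oxidative phosphorylation genes, 0 rose and 13 fell (37.1%, median -0.06), with NDUFV1, a complex I subunit gene, at 0.762. One rose with RLE or upper quartile factors. The 4 tested mitochondrially encoded genes had a median of 0.43 and none passed, but all 4 rose without parental sgNORAD replicate 2. MT-CO2 stood at 3020 and 6610 RPKM in the 2 parental sgNORAD libraries and at 6290 and 7650 RPKM in circPRE8 sgNORAD, so the groups overlapped (log2 0.64 ± 0.25 SE, adjusted p = 0.0503). It passed with a pseudocount of 1 (adjusted p = 0.0499), with a minimum of 2 RPKM (0.0451), with the replicate block (0.0386) and without parental sgNORAD replicate 2 (5.6e-06). Without parental sgNORAD replicate 1 its log2 difference was 0.07 (adjusted p = 0.637).

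Replication histone genes rose in 9 of 14 with 0 falls (64.3%, median 0.68). Their messages normally lack a poly(A) tail, and these libraries were made from RNA selected for it, so the values describe the polyadenylated share. HIST1H1C, a linker histone gene, rose from 9.6 and 9.47 RPKM to 23.2 and 21.3 RPKM (2.32-fold, adjusted p = 3.87e-07), and HIST1H2BK, chosen after its values were seen, rose 1.87-fold to 46 and 48.7 RPKM. Other members were lower, and the call of HIST1H4A was lost without parental sgNORAD replicate 1 (adjusted p = 0.37) or circPRE8 sgNORAD replicate 2 (adjusted p = 0.217), and that of HIST1H3B without circPRE8 sgNORAD replicate 2 (adjusted p = 0.0732). HIST1H2BC kept its call without any 1 library, with a log2 rise of 0.61 without parental sgNORAD replicate 1 in place of 0.92. Near-identical histone genes may share reads.

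By chromosome, the genes of chromosome 21 stood apart. The median log2 change of its 101 tested genes was -0.14, -0.12 from the median of all genes, with 12 risen and 48 fallen (11.9% and 47.5%). Single libraries left out gave -0.16 to -0.12, and centring by gene length gave -0.09 with 19 risen and 40 fallen. The median was -0.13 against circPRE2, -0.01 in circPRE2 against parental sgNORAD, 0.13 in parental sgNORAD against parental sgControl and -0.03 in circPRE8 against parental sgControl. The gene NRIP1, a nuclear receptor corepressor (14961235 to 15065936), was at 2.51 and 2.4 RPKM in parental sgControl, 7.22 and 7.1 RPKM in parental sgNORAD and 2.88 and 2.49 RPKM in circPRE8 sgNORAD (0.383 of parental sgNORAD, adjusted p = 7.57e-08). TTC3, a ubiquitin ligase gene, fell to 0.43 and B3GALT5, a galactosyltransferase gene, to 0.554. COL6A1, a collagen VI chain gene, and PTTG1IP rose 1.43-fold and 1.39-fold. No other nuclear chromosome had a median more than 0.1 from that of all genes.

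**Figure D5:**
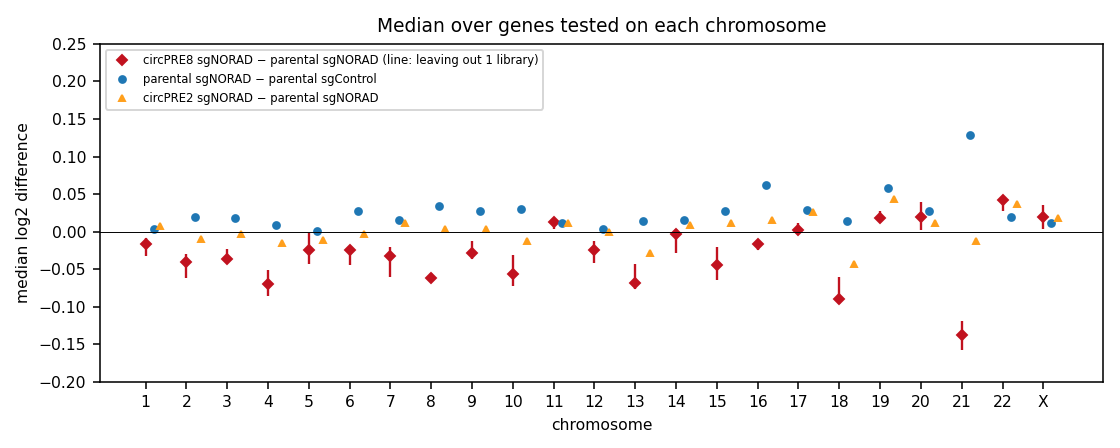
The median log2 difference over the genes tested on each chromosome is plotted for circPRE8 sgNORAD against parental sgNORAD (red, with a line for the range when 1 library is left out), parental sgNORAD against parental sgControl (blue) and circPRE2 sgNORAD against parental sgNORAD (orange). Chromosome 21 is lowest for circPRE8, at -0.14, and highest for the NORAD guide in the parental line, at 0.13, and both contrasts share the parental sgNORAD libraries.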

How the data were processed

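Poly(A) RNA of 8 HCT116 libraries was analysed, with groups and replicate numbers taken from the genotype, guide and title labels. The file deposited by the authors is 1 table with the RPKM of 19411 genes. The submitters' processing notes name STAR, featureCounts 1.6.0, edgeR 3.24.0 and hg38; the annotation, strand setting and filters were not given in the sources used here, so reads of overlapping, antisense or near-identical genes may be shared. A design text of the series that describes triplicates and a small RNA kit differs from these libraries and was not used. Gene identifiers matched GENCODE release 29 without their version for 19379 genes, which gave 1-based coordinates, merged exon lengths and 3′ UTRs. The scaling sizes were recovered from the steps of low RPKM values, of which 89.86% to 91.9% in a library came out whole, and replicates differed by more than counting noise (chi-square per degree of freedom 1.68 to 1.89).

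Values were tested as log2(RPKM + 0.1) with limma 3.58.1 in R 4.3.3, in 1 fit over all 8 libraries with 1 coefficient per group, no replicate block and an intensity trend (4 residual degrees of freedom, 11.6 after moderation), with Benjamini-Hochberg adjustment over the 11585 genes tested and a threshold of 0.05. The steps were tested on simulated data. Fold changes are antilogs of differences of mean log2(RPKM + 0.1) and understate the change of low genes. Because RPKM are not counts, no count test was run. Named genes were the 15 largest rises and the 15 largest falls among genes that passed, with at least 1 RPKM in the higher group, no overlap of the groups and a unique symbol, up to 4 members of each of 31 gene lists, PUM2, up to 6 genes apart from both other lines with the NORAD guide, up to 3 genes each way on a chromosome whose median lay more than 0.1 from all genes, and up to 3 genes with at least 2 PUMILIO motifs. Not all of them are described, and 1 item is not reported here. The comparison, the rules and the gene lists were chosen with earlier results of these data known. Replicate numbers were not used to pair the libraries. The correlations of deviations between groups ran from -0.173 to 0.211, which does not settle whether libraries of 1 number were handled together.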

Additional observations from a re-analysis of the deposited data

Results flagged for a closer look

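The change from parental sgNORAD differed between circPRE8 and circPRE2 for many genes, as tested directly by circPRE8 sgNORAD against circPRE2 sgNORAD (limma, Benjamini-Hochberg adjustment, n = 2 libraries per group), with 2081 genes higher in circPRE8 and 2975 lower. Among the 15 largest rises, the log2 difference of circPRE8 from circPRE2 was 3.65 for PRSS33, 3.42 for APOBEC3G, 2.31 for IGFBP3, 1.91 for SPARC, 1.76 for SNTB1, 1.47 for VIM and 1.42 for GPER1. It was 1.18 for DNER, 1.07 for SUSD2, 0.90 for SERPINA1 and 0.52 for F10. Among the 15 largest falls it was -2.40 for IL32, -2.28 for GALNT14, -2.21 for ZNF711, -2.11 for ARRDC4, -2.09 for MAL2, -1.94 for WDR72, -1.93 for DSC3 and -1.86 for MMP14. It was -1.69 for ACSL5, -1.62 for GRHL2, -1.60 for RGS2, -1.58 for VGF, -1.56 for ADGRF1, -1.44 for ZBTB20 and -1.32 for S100A14. In each of these 26 genes the 2 circPRE8 libraries lay on 1 side of the 2 circPRE2 libraries. These genes were chosen for their circPRE8 level and for passing this contrast, so the choice all but required that separation. The share of all genes with such a separation was not counted.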

How the results depend on the processing

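The counts of genes that rose and fell in circPRE8 sgNORAD against parental sgNORAD stayed within 1.5 times the reported counts under other pseudocounts, filters, scalings, fits, the replicate block and centring by gene length, although the majority direction turned under RLE factors, upper quartile factors and centring by length. A test against a log2 change over 0.5 (limma treat), which asks for a larger change, left 165 and 184, and 60 and 106 against circPRE2. Leaving out 1 library gave 2108 to 2669 rises and 2477 to 3244 falls, and 1289 to 2241 and 1884 to 3244 against circPRE2, where a lone library was taken to vary like the other groups. With the replicate block, which rests on numbers that are not known to pair the libraries, the counts were 2761 and 3360, and 2090 and 3043 against circPRE2. Of 137 named genes, PUM2 (-0.025, without parental sgNORAD replicate 2) and MT-ND4L (-0.036, without parental sgNORAD replicate 1) changed sign, and neither had passed. Without the other parental sgNORAD library they were at 0.121 and 0.949. With a minimum of 2 RPKM, which tests fewer genes, 6 epithelial-mesenchymal, 5 histone and 3 NF-kappaB genes rose. Without the intensity trend 9 integrated stress and 7 replication genes rose, and the cause was not tested. Centring by gene length was chosen after seeing the data. The planned count tests were not run because the table holds RPKM. Depth limits genes under about 1 RPKM, and 2 libraries per group limit every result.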
